A study of Caenorhabditis elegans with 5 samples.

Results

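Histones package DNA into nucleosomes, which hold pairs of the core proteins H2A, H2B, H3 and H4, while linker histone H1 binds the DNA between them. Most animals carry many copies of the core histone genes that are used in S phase, when new DNA is packaged. The mRNAs of these replication-dependent copies classically end in a stem-loop instead of a poly(A) tail. Variant histones, such as H3.3 and H2A.Z, replace core histones outside replication, and their genes and those of H1 typically carry introns and give polyadenylated mRNAs. In *C. elegans* the sperm and oocyte nuclei, the dividing germline and the somatic nuclei all draw on these genes.

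Histone genes were taken as all listed genes with a symbol starting with *his-* or *hil-*, together with *htz-1*. Of the 25393 genes in the table, 57 met this rule, and a further 24 core histone genes in the name table were not analysed here. RNA was measured in whole wild-type N2 animals, labelled as L4 larvae, which were kept on *E. coli* OP50 beforehand and then grown on *E. coli* HT115. There were 3 libraries from animals exposed to 400 µM tamoxifen and 2 from control animals given 400 µM citrate, each labelled 48 h, and each library pooled many animals. The study states that tamoxifen samples were collected later than the controls to offset slower development, so that drug and collection time cannot be told apart. Libraries were made by Cel-seq2, which starts cDNA from the poly(A) tail and yields a tag near the 3′ end of each mRNA, so that values do not scale with gene length and levels of different genes can be compared as CPM (a library's tags scaled to a sum of 1000000). In whole-animal RNA, fewer cells of a type and less RNA per cell cannot be told apart.

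Depth ran from 1782371 to 38276144 tags per library, with the shallowest and the deepest both in the tamoxifen group. The limit that a count of 0 allows, taken as 3 tags, is 0.854, 0.0784 and 1.68 CPM for tamoxifen replicates 1, 2 and 3, and 0.159 and 0.323 CPM for citrate replicates 1 and 2. These limits, and the intervals below, cover counting error only. Marker genes of the germline moved with the groups, and also between the controls. All 13 oocyte markers had a log2 fold change above 0, against 60.1% of all genes tested, and 11 passed the threshold given below, against 4.66% of all genes. After median-of-ratios scaling 5 passed (all genes 1.68%), and without citrate replicate 1 or tamoxifen replicate 1 none did (all genes 0.0502% and 0.259%). Their summed level ran from 10083 to 10883 CPM in tamoxifen, against 3432 and 5838 CPM in citrate replicates 1 and 2. The 9 markers of the wider germline summed to between 2988 and 3057 CPM in tamoxifen, against 1185 and 2074 CPM in citrate. The 10 sperm markers summed to between 177 and 354 CPM in tamoxifen, against 472 and 650 CPM in citrate. No marker of these lists was at 0 in every library, and their part in the histone values was not tested.

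Histone genes were first sorted by type. A fixed list of 16 variant and linker genes held the H3.3 genes *his-69*, *his-70*, *his-71*, *his-72* and *his-74*, the H2A.Z gene *htz-1*, the H2A gene *his-35*, and 9 linker genes, *his-24* and *hil-1* to *hil-8*. The other 41 were counted as core histone copies of the replication-dependent type because they were not on this list. By the length of the coding sequence, these comprised 8 H2A, 9 H2B, 12 H3 and 9 H4 genes and 3 genes of another length, *his-39*, *his-73* and 1 gene listed as *his-47*. The type and the annotated structure largely coincided. An intron and a 3′ UTR were annotated for 14 of the 16 variant and linker genes and for 3 of the 41 core copies, while the other 38 copies were annotated as bare coding sequence. The 3 copies include *his-41* and *his-37*, which share this structure with *his-35* of the list, and the ends of their mRNAs were not examined. Together the 3 gave 72.6%, 65.0% and 71.7% of core-copy tags in tamoxifen and 82.2% and 74.1% in citrate. Only 2.86% of the protein-coding genes of the table had neither an intron nor a 3′ UTR. Gene structures and positions are those of Ensembl release 115, assembly WBcel235, and the build used for counting is not given in the sources used here.

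Most core copies gave almost no tags. Of the 41 copies, 7 reached 5 CPM in at least 2 libraries, the level at which changes were tested, against 12 of the 16 variant and linker genes. This is 17.1% of the copies, while 31.2% of all coding genes with neither an intron nor a 3′ UTR and 44.0% of the other coding genes reached the same level. The median over the 38 bare copies was 0.672 CPM, taken from each gene's mean over the 5 libraries, against 152 CPM over the 14 variant and linker genes with an intron. The highest bare copy was the H2A gene *his-68*, at 31.2 CPM. The H2B gene *his-29* and the H3 gene *his-42* had no tag in any library. A low value here can reflect few mRNAs, mRNAs without a tail, tags that fall past the annotated end, or tags that match several near-identical copies, and these cannot be told apart.

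**Figure D1:**
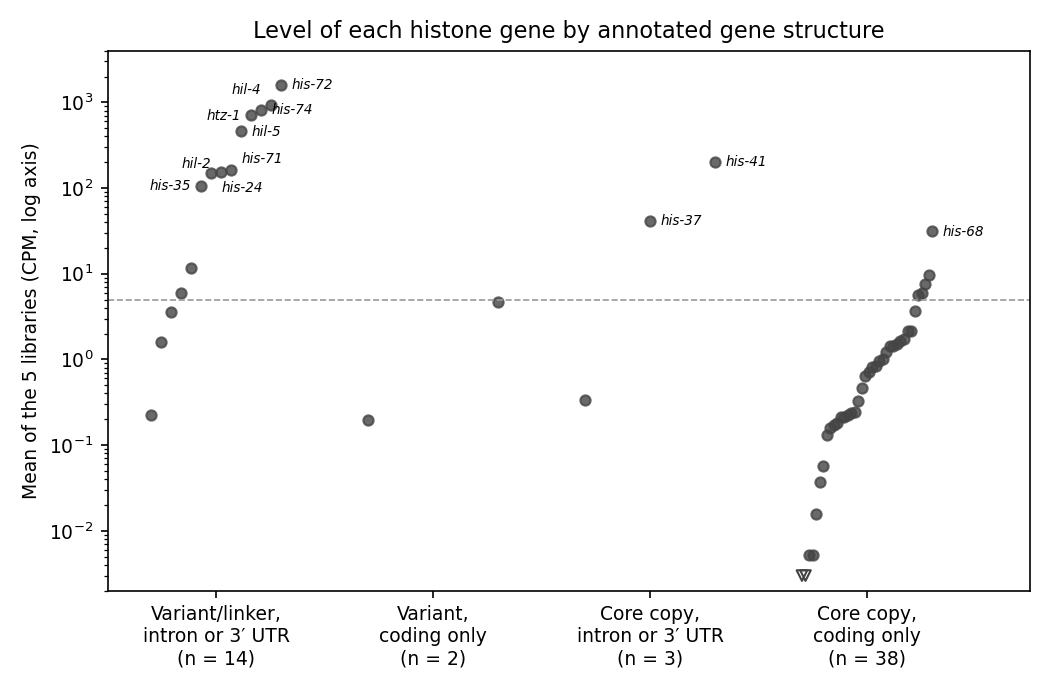
Mean CPM over the 5 libraries for each of the 57 histone genes, on a log axis, by type and annotated structure; each point is 1 gene, the dashed line is 5 CPM, and open triangles mark genes with 0 tags in every library, drawn at the lower edge. The variant and linker genes with an intron reach 1593 CPM, while the highest of the 38 coding-only copies is *his-68* at 31.2 CPM.

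All 57 genes together gave 6289, 5515 and 6378 CPM in tamoxifen replicates 1, 2 and 3, against 3978 and 5017 CPM in citrate replicates 1 and 2. The groups did not overlap, although the citrate libraries differed from each other by more than tamoxifen replicate 2 differed from citrate replicate 2. This sum was carried by the variant and linker genes, at 5947, 5288 and 6076 CPM in tamoxifen and 3572 and 4662 CPM in citrate. Their mean was 5770 ± 423 CPM in tamoxifen (SD, n = 3) and 4117 ± 771 CPM in citrate (SD, n = 2). Core copies went the other way, with 342, 227 and 302 CPM in tamoxifen and 405 and 354 CPM in citrate. Their mean was 290 ± 58.2 CPM in tamoxifen (SD, n = 3) and 380 ± 36.1 CPM in citrate (SD, n = 2). With 3 libraries against 2, no exact permutation test can go below p = 0.1, and these sums were not tested.

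As a share of histone tags, core copies made up 5.43%, 4.11% and 4.73% in the tamoxifen libraries (exact 95% intervals 5.14 to 5.74, 4.03 to 4.20 and 4.35 to 5.14) and 10.2% and 7.06% in the citrate libraries (9.98 to 10.4 and 6.83 to 7.30). Most of this gap came from *his-41* and *his-37*, which have an intron. The 38 bare copies alone gave 1.49%, 1.44% and 1.34% of histone tags in tamoxifen and 1.82% and 1.83% in citrate. In CPM, the bare copies overlapped between groups, with 93.7, 79.5 and 85.3 CPM in tamoxifen and 72.3 and 91.7 CPM in citrate. A large part of these sums was *his-68*, at 44.4, 29.9 and 35.9 CPM in tamoxifen and 19.8 and 26.1 CPM in citrate. When all 57 genes were grouped by structure instead, which puts *his-69* and *his-70* with the bare copies, the coding-only genes differed in share by -0.51 percentage points, against -3.87 for core copies. This grouping was chosen after seeing the data. The share of core copies also differed between the controls, and the difference was -2.30 percentage points without citrate replicate 1 and -5.43 without citrate replicate 2.

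The 8325 genes that reached 5 CPM in 2 or more libraries were tested by limma on the log2(CPM + 1) scale, and p-values were adjusted over all of them by Benjamini-Hochberg. A gene passed where its change exceeded 2-fold and its adjusted p was below 0.01. Of the 19 histone genes tested, 0 passed in either direction, where 4.66% of all tested genes passed as higher in tamoxifen and 2.76% as lower. At an unadjusted p under 0.05, limma gave 4 histone genes higher and 2 lower, against a background of 29.7% and 14.9%. By edgeR on whole tags 1 histone gene passed as lower (background 5.12%) and 0 as higher (background 1.78%), with 0 higher and 7 lower at an unadjusted p under 0.05, against 20.3% and 22.1%. By DESeq2 on whole tags 1 passed as lower (background 9.37%) and 0 as higher (background 5.51%), with 0 and 6 at an unadjusted p under 0.05, against 19.2% and 22.0%. The gene called by both tools was *his-71*. The replicates did not overlap between groups for 6 histone genes that were higher in tamoxifen and 4 that were lower, where 39.4% and 20.8% of all tested genes were separated in these directions. At a looser limit of 0.1 on limma's adjusted p, 0 histone genes were higher (background 17.0%) and 2 lower, *his-71* and *hil-1* (background 9.42%). Of these, *hil-1* reached 5 CPM only in the citrate libraries, so that the level required for testing favoured a lower value in tamoxifen.

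A log2 fold change above 0 was found for 8 of the 19 genes, 7 of 12 variant and linker genes and 1 of 7 core copies, against 60.1% of all genes tested. The median of the 19 was -0.18, against 0.24 for all genes tested. After median-of-ratios scaling these medians were -0.36 and 0.07, and the fold changes below should be read against this shift of all genes. Over the 12 variant and linker genes the median was 0.25, and over the 7 core copies it was -0.47.

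**Figure D2:**
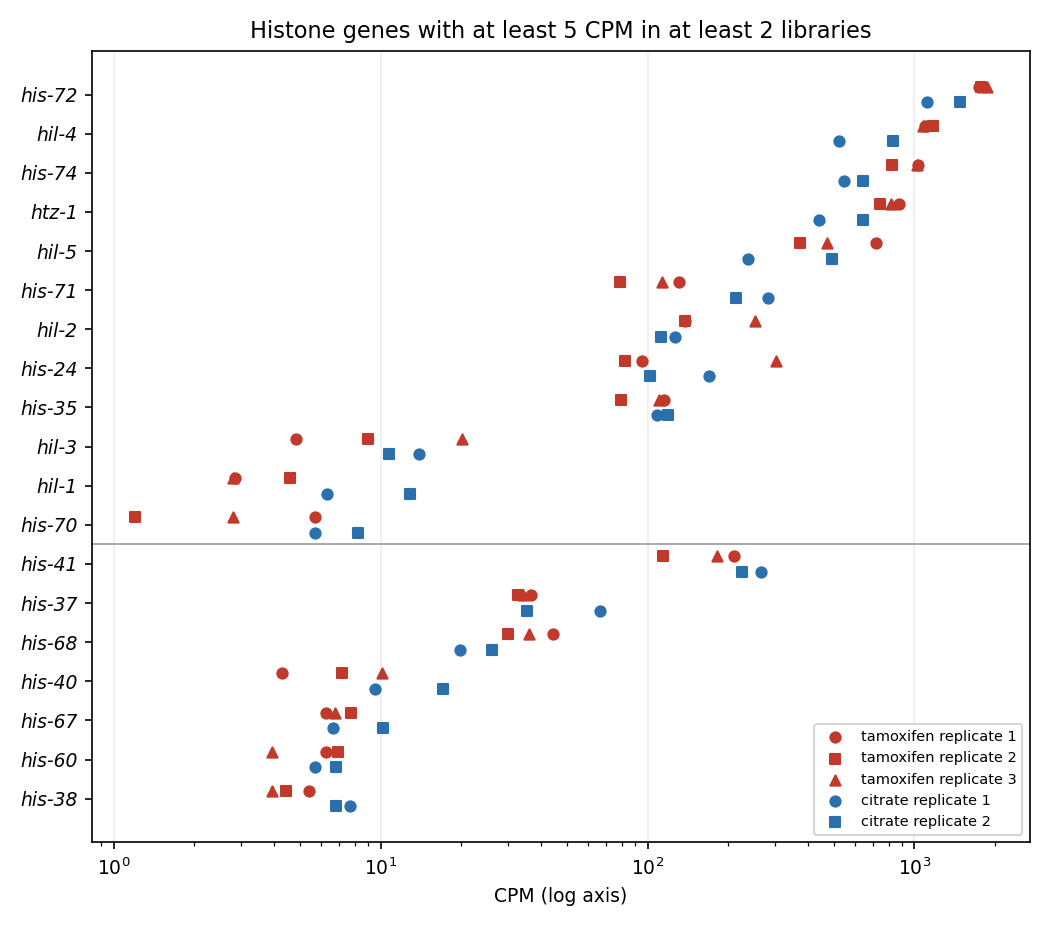
CPM in each library, on a log axis, for the 19 tested histone genes; variant and linker genes are above the line and core copies below it, with tamoxifen points above the citrate points of the same gene. The 3 tamoxifen values of *his-71* (78.6 to 131 CPM) lie below both citrate values (282 and 215 CPM).

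The H3.3 genes differed in direction, and none passed as higher. *his-71* (X, 7981382 to 7982070) had 131, 78.6 and 113 CPM in the tamoxifen libraries, against 282 and 215 CPM in the citrate libraries. All 3 tamoxifen values were below both citrate values. The ratio of the means was 0.433 and the log2 fold change -1.22 (standard error 0.29, limma adjusted p = 0.0108), so that *his-71* missed the limit on p and met that on size. It passed by edgeR (log2 fold change -1.47, adjusted p = 0.00501), by DESeq2 (-1.50, adjusted p = 5.06e-05) and by limma after median-of-ratios scaling (-1.40, adjusted p = 0.00786). With each library left out in turn, limma's adjusted p ran from 0.0121 to 0.126, and the highest was without citrate replicate 1.

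The most abundant histone gene, *his-72* (III, 12367475 to 12369050), also encodes H3.3 and had 1738, 1771 and 1872 CPM in tamoxifen, against 1110 and 1475 CPM in citrate. *his-74* (V, 12659704 to 12660330) had 1028, 827 and 1023 CPM in tamoxifen, against 545 and 642 CPM in citrate. For both genes every tamoxifen library was above both citrate libraries. Their log2 fold changes were 0.49 for *his-72* (standard error 0.20, limma adjusted p = 0.0795) and 0.69 for *his-74* (standard error 0.22, limma adjusted p = 0.0319). Neither reached 2-fold, and against the median of all genes these values were 0.25 and 0.45. By edgeR *his-72* was at 0.24 (adjusted p = 0.386) and *his-74* at 0.46 (adjusted p = 0.13). By DESeq2 they were at 0.21 (adjusted p = 0.533) and 0.43 (adjusted p = 0.189). The controls also differed from each other. Citrate replicate 2 was above replicate 1 by 0.41 for *his-72* and 0.23 for *his-74* on the log2 scale, and for *his-71* this log2 difference was -0.39.

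The share of each gene in H3.3 mRNA is given as a description and was not tested between groups. Tags of *his-71* made up 4.51%, 2.94% and 3.76% of all H3.3 tags in tamoxifen (exact 95% intervals 4.12 to 4.93, 2.83 to 3.04 and 3.27 to 4.31) and 14.5% and 9.20% in citrate (14.2 to 14.9 and 8.81 to 9.59). The groups did not overlap, and the controls also differed beyond counting error. *his-74* made up 35.4%, 30.9% and 34.0% in tamoxifen and 28.0% and 27.4% in citrate. The share of *his-72* overlapped, with 59.9%, 66.1% and 62.2% in tamoxifen and 57.1% and 63.0% in citrate. The share of all H3.3 genes in histone tags overlapped between groups, 46.2%, 48.6% and 47.2% in tamoxifen and 48.9% and 46.6% in citrate.

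The remaining H3.3 genes are the neighbours *his-69* and *his-70* on chromosome III, annotated as coding sequence only. *his-70* had 5.69, 1.20 and 2.81 CPM in tamoxifen, against 5.67 and 8.19 CPM in citrate (log2 fold change -1.03, standard error 0.49, limma adjusted p = 0.116). Tamoxifen replicate 1 lay within the citrate range. *his-69* was under the level tested, at 0, 0.392 and 0 CPM in tamoxifen and 0.583 and 0 CPM in citrate. Core H3 copies gave so few tags that H3.3 genes held 99.6%, 99.4% and 99.4% of all H3 and H3.3 tags in tamoxifen and 99.0% and 98.8% in citrate. This is a share of tags in poly(A)-primed libraries and not of the protein pool, and its cause was not tested.

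**Figure D3:**
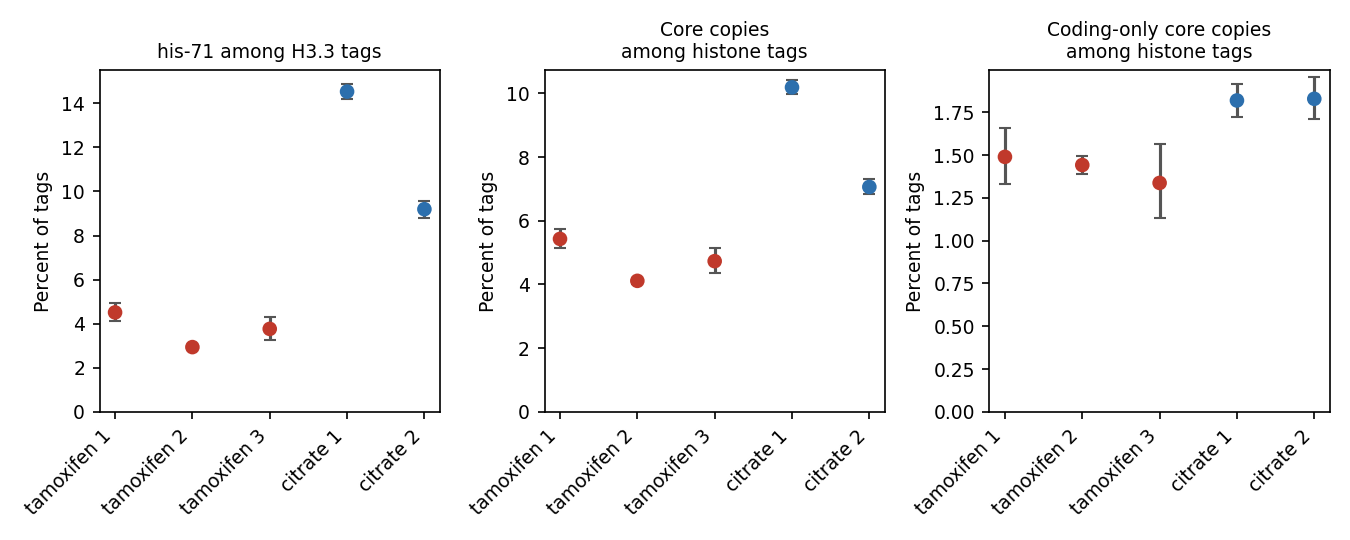
Percent of tags in each library, with exact 95% binomial intervals, for *his-71* among H3.3 tags, core copies among histone tags, and coding-only core copies among histone tags. In the left panel the tamoxifen libraries run from 2.94% to 4.51% and the citrate libraries are at 14.5% and 9.20%.

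H2A.Z, encoded by *htz-1* (IV, 4446216 to 4446999), marks nucleosomes near the start of transcribed genes. *htz-1* had 874, 743 and 815 CPM in tamoxifen, against 439 and 639 CPM in citrate, without overlap. By limma, *htz-1* had a log2 fold change of 0.61 with a standard error of 0.23 and an adjusted p of 0.0608, and of 0.34 without citrate replicate 1. The H2A gene *his-35* (V, 9544659 to 9545288) overlapped between groups, with 115, 79.4 and 110 CPM in tamoxifen and 108 and 119 CPM in citrate (log2 fold change -0.18, standard error 0.28, limma adjusted p = 0.646). *htz-1* made up 84.0%, 86.7% and 84.4% of all H2A and H2A.Z tags in tamoxifen and 76.9% and 81.2% in citrate.

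Among the linker histones, 6 of the 9 genes were tested, of which 4 had a log2 fold change above 0. The most abundant was *hil-4* (V, 4754313 to 4755453), with 1091, 1178 and 1079 CPM in tamoxifen, against 522 and 833 CPM in citrate. All tamoxifen values were above both citrate values. By limma its log2 fold change was 0.76, with a standard error of 0.23 and an adjusted p of 0.0287. It was 1.09 without citrate replicate 2, where it passed the threshold (limma adjusted p = 0.00759), and 0.42 without citrate replicate 1 (limma adjusted p = 0.307), with the lone citrate library assumed to vary like the others. *hil-5* had 718, 374 and 470 CPM in tamoxifen and 239 and 489 CPM in citrate (log2 fold change 0.55, standard error 0.33, limma adjusted p = 0.205), so that tamoxifen overlapped citrate replicate 2.

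For several linker genes tamoxifen replicate 3, the shallowest library, stood above the other libraries. *his-24*, which encodes the linker histone H1.1 with a role in germline chromatin, had 95.4, 82.2 and 303 CPM in tamoxifen, against 170 and 102 CPM in citrate. The log2 fold change of *his-24* was near 0 by limma, at 0.016 with a standard error of 0.45 and an adjusted p of 0.98, and was -0.57 without tamoxifen replicate 3. *hil-2* had 139, 138 and 252 CPM in tamoxifen, against 126.8 and 112 CPM in citrate (log2 fold change 0.50, standard error 0.31, limma adjusted p = 0.22), and without tamoxifen replicate 3 its log2 fold change was 0.21. *hil-3* had 4.84, 8.94 and 20.2 CPM in tamoxifen and 13.9 and 10.8 CPM in citrate (log2 fold change -0.31, standard error 0.46, limma adjusted p = 0.628). *hil-7*, under the level tested, was counted with 12 tags in tamoxifen replicate 3 (6.73 CPM), and at 0.285 and 0.209 CPM in tamoxifen replicates 1 and 2 against 0.424 and 0.431 CPM in citrate.

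*hil-1* (V, 14949777 to 14952799) had the largest negative change among linker genes. It had 2.85, 4.57 and 2.81 CPM in tamoxifen, against 6.30 and 12.9 CPM in citrate, without overlap. By limma its log2 fold change was -1.22, with a standard error of 0.42 and an adjusted p of 0.0438, past the limit on size but not on p. Only its citrate values reached 5 CPM, so that it was tested through the group in which it was higher. With either citrate library left out it was no longer tested. On the log2 scale, citrate replicate 2 was above citrate replicate 1 by 0.93. *hil-6* stayed at or under 0.323 CPM in every library. *hil-8* was at 3.70, 2.06 and 5.61 CPM in tamoxifen and 2.91 and 3.56 CPM in citrate, under the level tested.

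**Figure D4:**
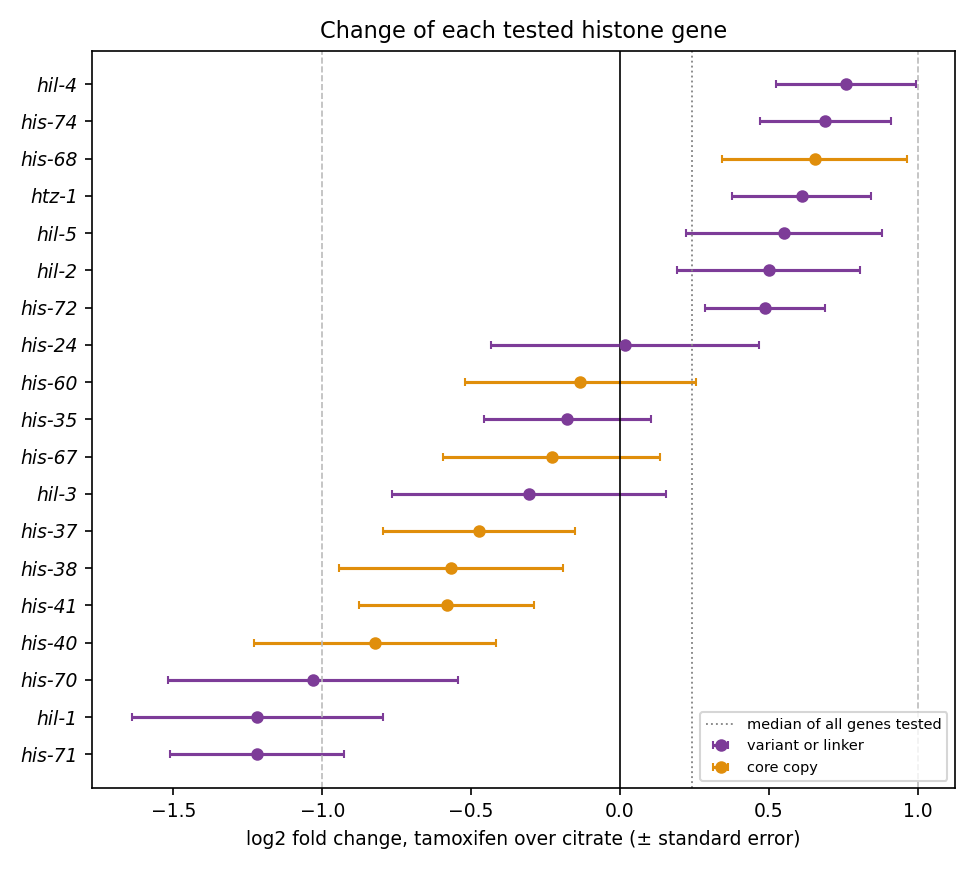
Log2 fold change of tamoxifen over citrate on the log2(CPM + 1) scale, with its standard error, for the 19 tested histone genes, purple for variant and linker genes and orange for core copies. Of the core copies only *his-68* lies right of 0, the dashed lines mark a 2-fold change, and the dotted line is the median of all genes tested at 0.24.

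Of the 7 core copies tested, 6 had a log2 fold change below 0. The H2B gene *his-41* (V, 9545536 to 9546264) was the most abundant, with 211, 114 and 182 CPM in tamoxifen, against 267 and 227 CPM in citrate, without overlap. By limma its log2 fold change was -0.58, with a standard error of 0.29 and an adjusted p of 0.139, and by DESeq2 its adjusted p was 0.0337. The H4 gene *his-37* (V, 9547105 to 9547607) had 36.7, 32.8 and 34.2 CPM in tamoxifen, against 66.2 and 35.2 CPM in citrate (log2 fold change -0.47, standard error 0.32, limma adjusted p = 0.268). Its tamoxifen values lay just under citrate replicate 2 except for replicate 1, and without citrate replicate 1 the log2 fold change was -0.028. *his-41* and *his-37* lie beside *his-35* within 1 cluster on chromosome V, and each of these 3 genes has 1 annotated intron and a 3′ UTR. This cluster gave 363, 226 and 327 CPM in tamoxifen and 441 and 381 CPM in citrate, the highest level of any group of neighbouring core histone genes. *his-41* overlaps *C50F4.6* on the same strand and *his-37* overlaps *nstp-10* on the opposite strand, so their tags could have been split or lost in counting.

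*his-68* (I, 9989132 to 9989515) was the core copy with a positive change. It had 44.4, 29.9 and 35.9 CPM in tamoxifen, against 19.8 and 26.1 CPM in citrate, without overlap (log2 fold change 0.65, standard error 0.31, limma adjusted p = 0.119). Its neighbour, the H4 gene *his-67*, had 6.26, 7.76 and 6.73 CPM in tamoxifen and 6.62 and 10.2 CPM in citrate. The H3 gene *his-40* and the H4 gene *his-38*, a neighbouring pair on chromosome X, were at 4.27, 7.16 and 10.1 CPM and at 5.41, 4.42 and 3.93 CPM in tamoxifen, against 9.53 and 17.1 CPM and 7.68 and 6.79 CPM in citrate. Their log2 fold changes were -0.82 for *his-40* (standard error 0.41, limma adjusted p = 0.131) and -0.57 for *his-38* (standard error 0.38, limma adjusted p = 0.256). The H4 gene *his-60* had 6.26, 6.92 and 3.93 CPM in tamoxifen and 5.67 and 6.79 CPM in citrate.

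The other 34 core copies were under the level tested, and none exceeded 4.49 CPM in any library. Together they gave 27.3, 23.6 and 24.7 CPM in tamoxifen and 23.4 and 25.4 CPM in citrate, values that overlapped closely and rest on 96, 905 and 44 tags in tamoxifen and 442 and 236 tags in citrate. Of these copies 19 stayed under 1 CPM in every library, and 8 of all 41 copies had at most 3 tags in each library. Individual copies differed in direction: 3 were higher in every tamoxifen library than in both citrate libraries and 4 were lower. Of all 17068 genes under the level tested, 4.08% were separated as higher and 12.0% as lower. The H4 gene *his-64* was among the first, at 3.42, 1.62 and 1.12 CPM in tamoxifen and 0.636 and 0.431 CPM in citrate, and its value in tamoxifen replicate 3 rests on 2 tags. The H3 gene *his-6* was among the second, at 0.569, 0.601 and 1.12 CPM in tamoxifen and 1.22 and 1.29 CPM in citrate, with 2 tags each in tamoxifen replicates 1 and 3. Both genes were chosen after their values were seen, and these differences were not tested. Some copies share a symbol in the name table: 9 of the 57 identifiers carry 4 symbols, *his-9*, *his-45*, *his-47* and *his-58*, and near-identical coding sequences could have divided their tags.

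Genes that supply and place histones were examined beside the histone genes. Of 15 such genes, all had a log2 fold change above 0 (14 after median-of-ratios scaling), against 60.1% of all genes tested, with a median of 1.07 against 0.24. In the main limma fit the threshold was passed by 1 of the 15, where 4.66% of all genes passed as higher. By DESeq2 3 of the 15 passed, where 5.51% of all genes passed as higher. These were *cdl-1*, *lin-53* (log2 fold change 1.06, DESeq2 adjusted p = 0.00752) and *rba-1* (1.28, DESeq2 adjusted p = 0.00644). The gene that passed by limma was *cdl-1*, the stem-loop binding protein that histone mRNAs of the replication-dependent type need for processing. *cdl-1* had 292, 387 and 395 CPM in tamoxifen, against 61.6 and 146 CPM in citrate (log2 fold change 1.89, standard error 0.33, limma adjusted p = 0.00358). It also passed by edgeR (1.58, adjusted p = 0.00789), by DESeq2 (1.55, adjusted p = 0.000175) and by limma after median-of-ratios scaling (1.71, adjusted p = 0.00742). For *cdl-1* citrate replicate 2 was above citrate replicate 1 by 1.23 on the log2 scale. Without citrate replicate 1, which leaves 1 control, the log2 fold change of *cdl-1* was 1.27. *cdl-1* missed the threshold without tamoxifen replicate 1 (limma adjusted p = 0.0155) and without tamoxifen replicate 3 (limma adjusted p = 0.0123). Subunits of the chromatin assembly factor CAF-1 (*chaf-1*, *chaf-2*) and of the FACT complex (*hmg-3*, *hmg-4*, *spt-16*) had log2 fold changes from 1.07 to 1.45 that did not pass in the main limma fit.

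Histone variants outside the rule were also examined. *cpar-1* encodes a centromeric H3 of the CENP-A type and had 51.0, 35.7 and 56.7 CPM in tamoxifen, against 12.3 and 19.7 CPM in citrate (log2 fold change 1.53, standard error 0.33, limma adjusted p = 0.0077). By DESeq2 it also passed (log2 fold change 1.31, adjusted p = 0.0019). It missed the threshold after median-of-ratios scaling (limma adjusted p = 0.0128), by edgeR (adjusted p = 0.0146) and without citrate replicate 1 (limma adjusted p = 0.11), tamoxifen replicate 1 (0.0311) or tamoxifen replicate 3 (0.0242). *hcp-3*, the other CENP-A gene, had 119, 112 and 157 CPM in tamoxifen, against 51.0 and 75.8 CPM in citrate (log2 fold change 1.03, standard error 0.29, limma adjusted p = 0.0209). *htas-1*, a sperm H2A variant, had 6.83, 3.87 and 2.24 CPM in tamoxifen and 6.14 and 11.7 CPM in citrate, which overlapped (log2 fold change -0.94, standard error 0.45, limma adjusted p = 0.123).

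S phase genes, which act when core histones are made, were examined beside the core copies. Of 24 such genes 23 were tested, all with a log2 fold change above 0, against 60.1% of all genes, and with a median of 1.23, against 0.24. By DESeq2 10 of the 23 passed, where 5.51% of all genes passed as higher. In the main limma fit the threshold was passed by 8, where 4.66% of all genes passed as higher: *rnr-1*, *rnr-2*, *mcm-3*, *mcm-5*, *mcm-6*, *cdc-6*, *dut-1* and *lig-1*. By edgeR (all genes 1.78%) and by limma after median-of-ratios scaling (all genes 1.68%) 3 of these passed, *mcm-6*, *cdc-6* and *dut-1*, and each of the 8 missed the threshold when some library was left out. Without citrate replicate 1 or tamoxifen replicate 1, none of the 23 passed. The ribonucleotide reductase gene *rnr-2* had 239, 314 and 228 CPM in tamoxifen, against 61.0 and 125 CPM in citrate (log2 fold change 1.55, standard error 0.32, limma adjusted p = 0.00638), and with each library left out in turn its adjusted p ran from 0.00175 to 0.0925. The replication clamp gene *pcn-1* had 1575, 1730 and 1558 CPM in tamoxifen, against 721 and 1432 CPM in citrate (log2 fold change 0.67, standard error 0.26, limma adjusted p = 0.0613). The controls differed over this list too: citrate replicate 2 was above citrate replicate 1 for 21 of the 23 genes, by a median of 0.74 on the log2 scale. The oocyte and germline lists also had medians above that of all genes, at 1.57 and 0.91. Core copies had a median of -0.47 over the 7 tested genes, of which 5 are bare copies. The others are *his-41* and *his-37*, whose mRNA ends were not examined. The difference between core copies and S phase genes was not tested.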

How the data were processed

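Gene expression was profiled by Cel-seq2 in 5 libraries, 3 tamoxifen and 2 citrate, grouped by their sample titles. The authors deposited 1 table of values they call TPM. The authors scaled the tags of each gene to a library sum of 1000000 with no gene length, so the deposited values are CPM. All were whole multiples of 1 step per library (100% whole within 0.02 of a tag), which gave tags for edgeR and DESeq2. Per the submitters' processing notes Trimmomatic 0.32 and STAR were used; the genome build, the counting tool, strand use and the treatment of molecular identifiers and multiply aligned tags are not given in the sources used here. Of 25393 genes, 25064 were matched to a symbol.

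Changes were tested with limma 3.58.1 in R 4.3.3 on log2(CPM + 1), moderating variances along a mean-variance trend, with no covariates. Fold changes on this scale understate those of low genes. edgeR 4.0.16 (quasi-likelihood) and DESeq2 1.42.0 were alternatives, besides other pseudocounts, filters, scalings, a replicate block and each library left out. The fits were checked on simulated counts. The named genes were every tested histone gene, the variant list and a few genes of the supply, S phase and marker lists. The histone genes, lists and tests were chosen with earlier results of these data known. Nothing states that replicates came from separate cultures beyond the study's term biological replicates.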

Additional observations from a re-analysis of the deposited data

How the results depend on the processing

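The count of histone genes past the threshold was 0 in each direction. As lower in tamoxifen it was 1, *his-71*, with a pseudocount of 5 (log2 fold change -1.19), a filter of 20 CPM (-1.22), median-of-ratios scaling (-1.40), quantile normalization (-1.41), edgeR (-1.47), DESeq2 (-1.50) and the replicate block (-1.27), and 2, with *hil-1*, at an adjusted p under 0.1 (background 9.42%). It stayed 0 with a pseudocount of 0.1, no filter, no trend and each library left out (from 0 to 0). As higher it was 0 in every setting that kept both citrate libraries. Under these settings 0% (no filter) to 12.5% (replicate block) of all genes passed as higher. Without citrate replicate 2, which leaves 1 control, the log2 fold change of *hil-4* was 1.09. Of all genes, 5.12% passed as lower by edgeR and 9.37% by DESeq2. For the pseudocount, filter, scaling and block settings this share was not taken. With the replicate block the counts were 0 higher and 1 lower. Replicate 3 has no citrate library, so the block leaves tamoxifen replicate 3 without weight in the fold changes. These equal the fold changes without tamoxifen replicate 3, such as -1.27 for *his-71*, and are no separate check of direction. Same-numbered libraries deviated together at correlations of 0.12 and 0.32 across genes, with 2 pairs, and share only a number.

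The summed CPM of core copies and of variant and linker genes each kept its direction with each library left out and over tested genes alone, which still hold *his-41* and *his-37*. The summed CPM of the bare core copies alone overlapped between groups, with 93.7, 79.5 and 85.3 CPM in tamoxifen and 72.3 and 91.7 CPM in citrate. Of these sums, *his-68*, which was higher in tamoxifen, gave 44.4, 29.9 and 35.9 CPM in tamoxifen and 19.8 and 26.1 CPM in citrate. Of the 7 core copies tested, 6 had a log2 fold change below 0. As a share of histone tags, the bare copies were lower in tamoxifen, at 1.49%, 1.44% and 1.34% against 1.82% and 1.83% in citrate. The difference in the share of core copies, -3.87 percentage points, ran from -5.43 to -2.30 with each library left out and was -0.51 with grouping by structure, which was chosen after seeing the data. Of 295 fits of single histone genes, 11 turned the sign, all of genes whose change was under its standard error. *his-24* was at -0.17 after median-of-ratios scaling, -0.19 after quantile normalization, -0.062 with edgeR, -0.072 with DESeq2 and -0.57 with the replicate block, and leaving out a library gave from -0.57 (tamoxifen replicate 3) to 0.38 (citrate replicate 1). *his-60* was at 0.074 both under the replicate block and without tamoxifen replicate 3, and leaving out a library gave from -0.27 to 0.074. The same range was -0.51 to 0.051 for *his-67* and -0.80 to 0.13 for *hil-3*. The causes were not tested. Depth limits the low core copies: a gene at 5 CPM has 8.91 tags in the shallowest library.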
